A study of Mus musculus with 4 samples.

Results

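The genes described here encode the proteins of the cytosolic ribosome. Their messenger RNA was sequenced in 4 libraries of mouse bone marrow cells that carry the receptor c-Kit. They were chosen by name: protein-coding genes with the symbol Rpsa, Rplp0, Rplp1 or Rplp2, or with a symbol that starts with Rpl or Rps followed by a digit, leaving out the ribosomal S6 kinases. The rule found 89 of the 28987 genes in the deposited table. Of these, 44 encode proteins of the large subunit and 31 encode proteins of the small subunit. A further 7 are paralogs of such genes, 6 are protein-coding genes named as retrocopies or pseudogenes, and 1 (Rps19bp1) encodes a protein that binds Rps19. The GENCODE M21 annotation holds 92 such genes, and Rpl24, Rpl41 and Rpl36-ps4 were not used here.

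The cytosolic ribosome joins ribosomal RNA with ribosomal proteins in a small subunit, which decodes messenger RNA, and a large subunit, which joins amino acids. Most mammalian ribosomal proteins come from a gene with introns, whose messenger RNA is short, abundant and begins with a terminal oligopyrimidine tract that places its translation under mTOR control. These messages have been copied back into the genome many times by retrotransposition, so that their genes have large families of near-identical processed pseudogenes. In blood formation, loss of 1 allele of several ribosomal protein genes causes Diamond-Blackfan anaemia, and loss of RPS14 is part of the 5q- syndrome.

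All 4 libraries came from C57BL/6 mice with the genotype MllPTD/WT, Runx1 Flox/Flox and Mx1-Cre: Mll, also called Kmt2a, has a partial tandem duplication, and Runx1 is floxed and thus open to deletion by Cre recombinase under the interferon-inducible Mx1 promoter. In 2 libraries, called Hif1a-intact here, Hif1a was not floxed. The other 2 carried Hif-1alpha Flox/Flox in addition and are labelled as Hif1a-null. HIF-1, the transcription factor of the response to low oxygen, needs Hif1a as its regulated subunit, and the comparison is between libraries labelled with and without its loss. The titles call all 4 libraries Runx1-null. Ages are not in the labels, nor is it stated that replicates were separate mice, so each p-value reflects no more than the spread among these 4 libraries, which may be technical.

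Values were read as TPM, which express each gene as a share of all transcripts after scaling for length and keep no read counts, so the depth behind each value is unknown. The 4 libraries summed to between 955562 and 963135 TPM. Hif1a itself had 100.3 and 75.2 TPM where it was not floxed, against 98.8 and 113 TPM in the libraries labelled Hif1a-null (limma, adjusted p = 0.479), which is no decrease. Runx1 had 73.6 and 76.6 TPM against 48.4 and 46.7 TPM (limma, adjusted p = 0.0636), so its transcript was listed in all 4 libraries. A gene total does not show whether a floxed exon was deleted, so neither genotype label was checked by it. Kit averaged 127 and 111 TPM in the 2 groups, and the 8 granulocyte markers summed to 60842 and 53825 TPM in the Hif1a-intact libraries against 103290 and 99833 TPM in the others. The 8 erythroid markers summed to 126 and 88.0 TPM against 6800 and 7227 TPM. The 6 B-lineage markers summed to 19.9 and 16.6 TPM against 208 and 205 TPM. Sums were also higher in the libraries labelled Hif1a-null for megakaryocyte (25.9 and 23.9 against 103 and 125 TPM), T and NK (6.01 and 5.26 against 53.0 and 56.4 TPM), monocyte and macrophage (175 and 160.1 against 202 and 203 TPM) and stromal and endothelial markers (22.7 and 17.5 against 54.2 and 63.7 TPM). In the opposite direction, the 4 mast cell and basophil markers summed to 547 and 303 TPM against 60.2 and 57.4 TPM, and the 5 stem and progenitor markers to 388 and 387 TPM against 319 and 325 TPM. Pax5, Cd3e, Cd3g, Gzma and Fcer1a were each listed at 0 in at least 1 library. In such bulk samples, fewer cells of a type and less RNA per cell cannot be told apart, and the part of these marker differences in the values below was not tested.

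The 2 Hif1a-intact libraries stood apart from each other in many ribosomal protein genes before any comparison of genotypes. Hif1a-intact replicate 1 held the highest value of 66 of the 89 genes, and Hif1a-intact replicate 2 held the lowest value of 47. Hif1a-null replicate 2 held the lowest value of 30. These counts were not made over all tested genes. The counts of genes called and their direction are therefore also given below without each of the Hif1a-intact libraries.

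The 89 genes together made up 4.49% and 4.13% of all TPM where Hif1a was intact, against 3.79% and 3.58% in the libraries labelled Hif1a-null. Their summed levels were 43149, 39484, 36431 and 34500 TPM, in the order Hif1a-intact replicates 1 and 2 and Hif1a-null replicates 1 and 2, which is the order of all 4-value lists below. In this sum, both labelled Hif1a-null libraries lay below both Hif1a-intact libraries. That order rested on Rpl13a, with 5947 TPM in Hif1a-intact replicate 2 and 2718 TPM in Hif1a-null replicate 1. The distance between these 2 values exceeded the distance between the summed levels of the same libraries. For the summed level, the difference of the group means was -0.22 on the log2 scale (exact two-sided permutation test, p = 0.333, which is the smallest p that 2 against 2 can give). The order was not kept by the median of the 89 genes, which was 278.7, 153.5, 183.0 and 158.9 TPM. By the median, Hif1a-intact replicate 2 was the lowest library. The large subunit genes, Rpl13a included, summed to 23865, 22784, 19775 and 18657 TPM. The Rpl13a distance again exceeded that between the sums of Hif1a-intact replicate 2 and Hif1a-null replicate 1. The small subunit genes summed to 16056, 11811, 12259 and 11051 TPM, so that here Hif1a-intact replicate 2 lay below Hif1a-null replicate 1.

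Levels within the set ranged widely, although the products are parts of the same particle. On average over the libraries, 9 genes had at least 1000 TPM, 52 had between 100 and 1000, 22 had between 10 and 100, and 6 had fewer than 10. The 10 highest genes held 49.03% of the summed level. The median gene averaged 200.1 TPM.

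**Figure D1:**
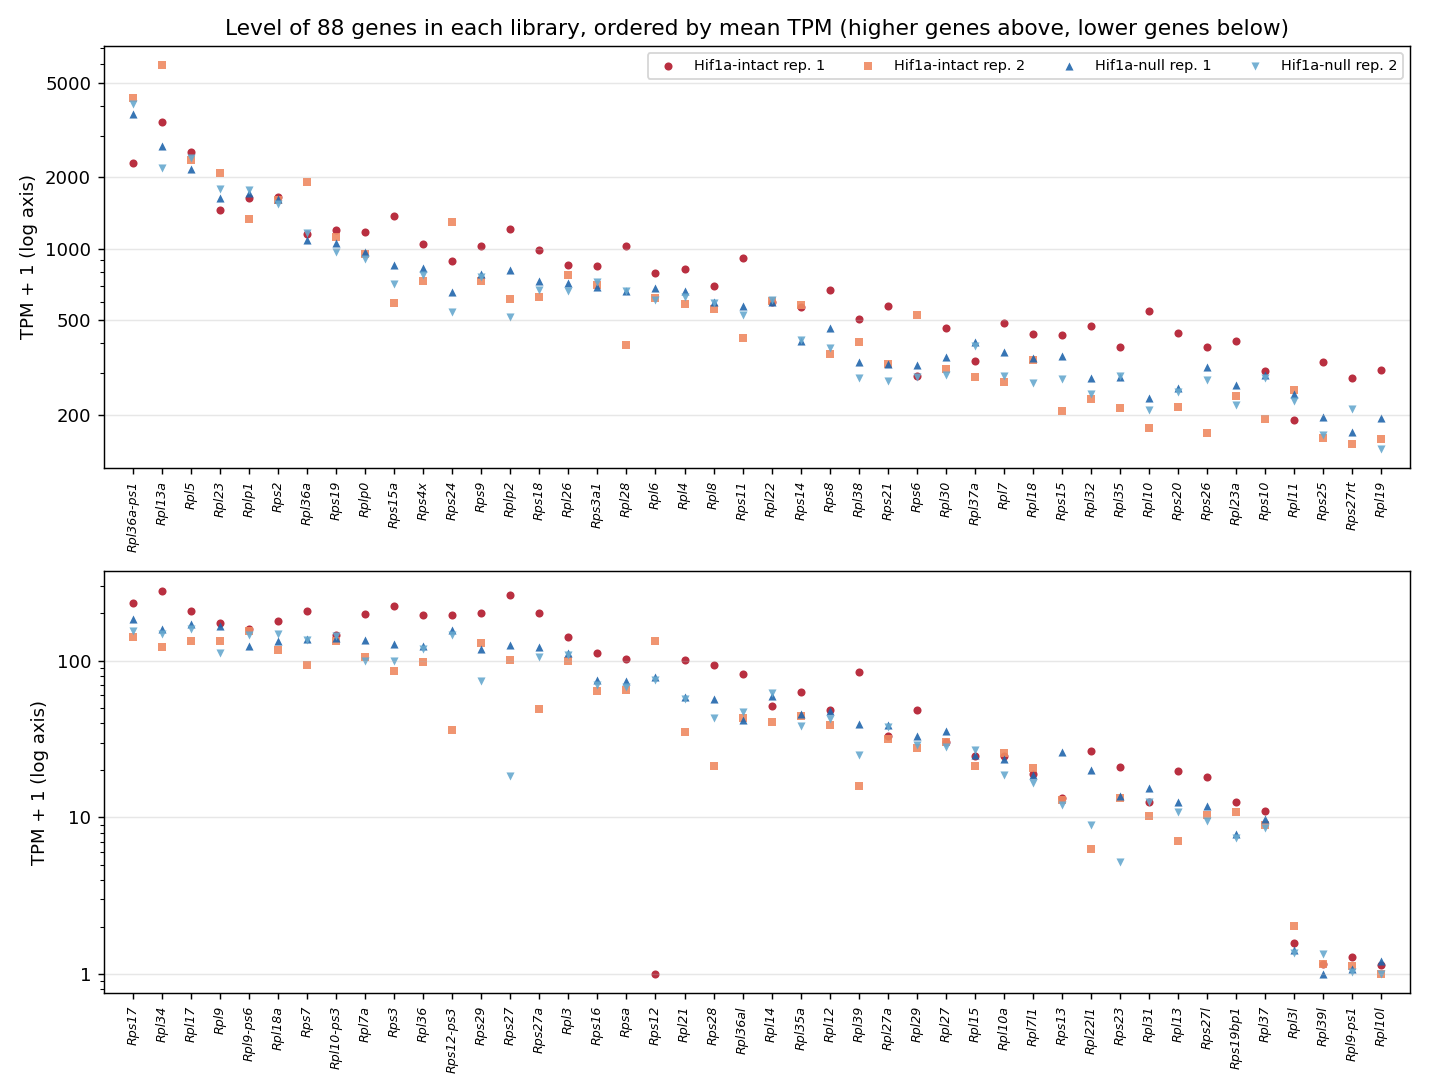
Level of 88 of the 89 genes as TPM + 1 on a log axis, with 1 point per library, ordered by mean level. Hif1a-intact replicate 1 (dark red circles) is the top point for most genes, and its point for Rps12 lies at the floor of the axis.

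The highest level belonged to Rpl36a-ps1, an intronless copy of Rpl36a on chromosome 14 (98993870 to 98994318, minus strand, GRCm38), with 2291, 4331, 3715 and 4063 TPM. Rpl13a, a large subunit protein that is also known outside the ribosome as a translational repressor in interferon-treated cells, followed with 3416, 5947, 2718 and 2191 TPM (chromosome 7, 45125558 to 45128761, minus strand). In both, Hif1a-intact replicate 2 was the highest library, as in 12 of the 89 genes. Rpl5, which binds 5S ribosomal RNA and the p53 regulator Mdm2, had 2562, 2380, 2162 and 2427 TPM. Rpl23, another large subunit protein, had 1459, 2088, 1639 and 1789 TPM. The stalk protein gene Rplp1 had 1633, 1330, 1722 and 1763 TPM. Of these 5 genes, Rpl5 had the smallest spread between the Hif1a-intact libraries.

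At the other end, Rpl37 was the lowest gene with an ordinary subunit name, with 9.91, 8.0, 8.80 and 7.55 TPM. It held 2.23% of the sum with its copy, which was 507, 347, 376 and 304 TPM. Below it lay Rpl3l, the paralog of Rpl3 known from heart and skeletal muscle, with 0.577, 1.04, 0.418 and 0.365 TPM. Rpl39l, a paralog best known from testis, had 0.170, 0.159, 0 and 0.340 TPM. Rpl10l, a retrogene known to take the place of Rpl10 in male germ cells, had 0.145, 0, 0.212 and 0 TPM, and Rpl9-ps1 had 0.293, 0.122, 0.0821 and 0.0362 TPM. These 4 genes missed the filter of at least 1 TPM in at least 2 libraries, so that 85 members were tested.

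No ribosomal protein gene was called between genotypes. Of the 85 genes tested with limma on log2(TPM + 1), 0 were higher and 0 were lower in the libraries labelled Hif1a-null at an adjusted p of 0.05, where 7.27% of all 11909 tested genes were called (5.25% higher and 2.02% lower). At an unadjusted p under 0.05, 5 of the 85 passed, against 23.2% of all tested genes. The median log2 fold change was -0.16 for the 85 genes and -0.06 for all tested genes, and 62 of the 85 (72.9%) lay below 0, against 57.5% of all tested genes. The groups did not overlap in 18 genes (21.2%), 12 with the Hif1a-null values lower and 6 with them higher, against 55.0% of all tested genes (32.3% lower and 22.7% higher). In 44 of the 89 genes, both Hif1a-null values lay between the 2 Hif1a-intact values, which was not counted over all tested genes.

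Among the 44 large subunit genes, 32 lay below 0 and the median log2 fold change was -0.12. Rpl38, which is known for a role in the translation of Hox messages in the embryo, had 506, 404, 333 and 285 TPM. Both values from libraries labelled Hif1a-null lay below both others, with a log2 fold change of -0.55 ± 0.18 (SE, n = 2 and 2, limma adjusted p = 0.183). Rpl38 held 19.0% of the sum with its copies, and that sum (3555, 1330, 1717 and 1420 TPM) overlapped between the groups, with a log2 fold change of -0.48. For Rpl13a, whose 4 values are given above, the groups also did not overlap, and its log2 fold change was -0.88 ± 0.32 (SE, adjusted p = 0.209 in limma). The distance between its Hif1a-intact libraries, 0.80 on the log2 scale, was nearly as large, and without Hif1a-intact replicate 2 the log2 fold change was -0.48. Higher values came with the libraries labelled Hif1a-null for Rpl37a, a zinc finger protein of the large subunit, with 337, 287, 406 and 388 TPM. The groups did not overlap, and the log2 fold change was 0.35 (limma adjusted p = 0.261). Summed with its copies, Rpl37a had 771, 445, 660 and 555 TPM, with overlap of the groups and a log2 fold change of 0.047. Rpl14 had 50.5, 39.6, 58.3 and 61.0 TPM, and Rpl31 had 11.6, 9.18, 14.5 and 11.6 TPM. Their log2 fold changes were 0.41 and 0.30 (limma adjusted p = 0.261 and 0.434), and both had the opposite sign (-0.27 and -0.23) once the near-identical copies were added to each gene. Rpl22, whose loss is known to impair lymphoid development, varied little, with 599.5, 603, 599.2 and 609.6 TPM.

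Among the 31 small subunit genes, 24 lay below 0 and the median log2 fold change was -0.17. Rps14, the gene whose human counterpart is lost in the 5q- syndrome, had 568, 582.3, 410.1 and 412 TPM. Its replicates were close and its groups far apart, with a log2 fold change of -0.48 ± 0.12 (SE, n = 2 and 2, limma adjusted p = 0.115). With a pseudocount of 10 in place of 1, its adjusted p in limma was 0.0466, where 1.28% of all genes were called lower. Under the other alternative settings that kept all 4 libraries, its limma adjusted p lay between 0.0696 and 0.174. With any 1 of the 4 libraries left out, its log2 fold change stayed between -0.50 and -0.47. Rps24, mutated in some patients with Diamond-Blackfan anaemia, had 888, 1303, 657 and 542 TPM. Here the groups did not overlap either, and the log2 fold change was -0.85 ± 0.25 (SE, limma adjusted p = 0.146). Hif1a-intact replicate 2 was far above the rest, and without it the log2 fold change was -0.57. Rps29, a zinc finger protein of the small subunit, had 200.2, 129, 118 and 72.7 TPM, and a log2 fold change of -0.78 (limma adjusted p = 0.279). It was -0.47 without Hif1a-intact replicate 1 and -0.44 without Hif1a-null replicate 2, and -0.43 when summed with copies, of which Rps29 itself held 1.62%.

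Other large differences among small subunit genes rested on 1 library. Rps27 had 262, 101, 126 and 17.3 TPM, and its log2 fold change of -1.76 ± 1.08 (SE, limma adjusted p = 0.421) was the lowest of the set. Its value in Hif1a-null replicate 2 was far below the other 3, and without that library the log2 fold change was -0.37. Rps23, which lies at the decoding centre, had 20.04, 12.3, 12.7 and 4.18 TPM, again with Hif1a-null replicate 2 low and with overlap of the groups. Its log2 fold change was -0.99, and -0.28 without that library. Rps13 had 12.2, 11.9, 25.2 and 10.96 TPM, with only Hif1a-null replicate 1 high. Its log2 fold change was 0.44, and -0.13 without that library. Summed with copies, the log2 fold changes of Rps27, Rps23 and Rps13 were -0.41, -0.51 and 0.034.

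The 3 acidic stalk proteins, which recruit the elongation factors to the ribosome, had differences of both signs. Rplp0 had 1178, 953, 968 and 909 TPM, Rplp2 had 1218, 612, 814 and 517 TPM, and Rplp1 is given above. Their log2 fold changes were -0.18, -0.41 and 0.24, and the groups were free of overlap for Rplp1 alone. Without Hif1a-intact replicate 1, Rplp0 was at -0.02 and Rplp2 at 0.08. Rplp1 was at 0.09 without Hif1a-intact replicate 2. Rps19bp1, which encodes the Rps19-binding protein and is no ribosomal protein itself, had 11.5, 9.79, 6.85 and 6.36 TPM. Its log2 fold change was -0.61 ± 0.15 (SE, n = 2 and 2), with the smallest limma adjusted p of the set at 0.103.

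Of the 10 genes with human counterparts in Diamond-Blackfan anaemia or the 5q- syndrome, 7 lay below 0, 3 lay above and 0 were called, and their median log2 fold change was -0.10. Rps19, the gene most often mutated in that anaemia, had 1200.01, 1124, 1063 and 973 TPM, a log2 fold change of -0.19 (limma adjusted p = 0.476). Rpl11, which binds Mdm2 with Rpl5, had 189, 254, 245 and 227 TPM, and Rps26 had 385, 167, 316 and 281 TPM. In both, the libraries labelled Hif1a-null lay between the Hif1a-intact libraries.

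Paralogs were listed below their parent genes in every library for the pairs given here, with ratios that differed from library to library. Rpl22l1, a regulatory paralog of Rpl22, had 25.7, 5.28, 19.0 and 7.94 TPM, so that replicates 1 and 2 differed by more than 2-fold in both groups, and Rpl22 was between 23.4 and 114 times higher. That order rested on the gene's own listing, which held 1.91% of the sum with its near-identical copies. Summed, Rpl22l1 had 947, 572, 823 and 688 TPM, above Rpl22 in 3 of the 4 libraries, and its replicates differed by 0.73 and 0.26 on the log2 scale, under 2-fold. Rps27l, which is known as a p53 target, had 17.0, 9.31, 10.8 and 8.50 TPM, and Rps27 was between 2.04 and 15.4 times higher. The ratio of 2.04 came from Hif1a-null replicate 2, where Rps27 held 7.57% of the sum with its copy Rps27rt, described below. Rpl7l1 had 18.0, 19.7, 17.7 and 15.6 TPM, between 13.9 and 27.0 times below Rpl7. Rpl36al, which encodes nearly the same protein as Rpl36a, had 81.2, 42.1, 41.0 and 45.9 TPM. Of the 4 paralogs tested, 3 lay below 0, 0 were called and the median log2 fold change was -0.27.

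In most of these genes, the Hif1a-intact replicates differed from each other by more than the group means did. Replicate 1 was higher than replicate 2 in 73 of the 85 tested genes, against 59.1% of all tested genes. The median difference was 0.57 on the log2 scale, against 0.08 for all tested genes. In 22 genes (25.9%) the replicates were at least 2-fold apart, against 6.16% of all tested genes, with 21 higher in replicate 1 and Rps12 higher in replicate 2. The difference was 0.38 in the median for large subunit genes and 0.67 for small subunit genes. In 66 of the 85 genes it was larger than the difference between the group means, as in 50.7% of all tested genes. The 2 libraries labelled Hif1a-null differed less, but in the same direction. There, replicate 1 was higher in 68 of the 85 genes (80.0%), against 52.3% of all tested genes. The median was 0.13, against 0.01 for all tested genes. At least 2-fold apart were 4 genes (Rps27, Rps13, Rpl22l1 and Rps23, 4.71%), against 2.35% of all tested genes.

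**Figure D2:**
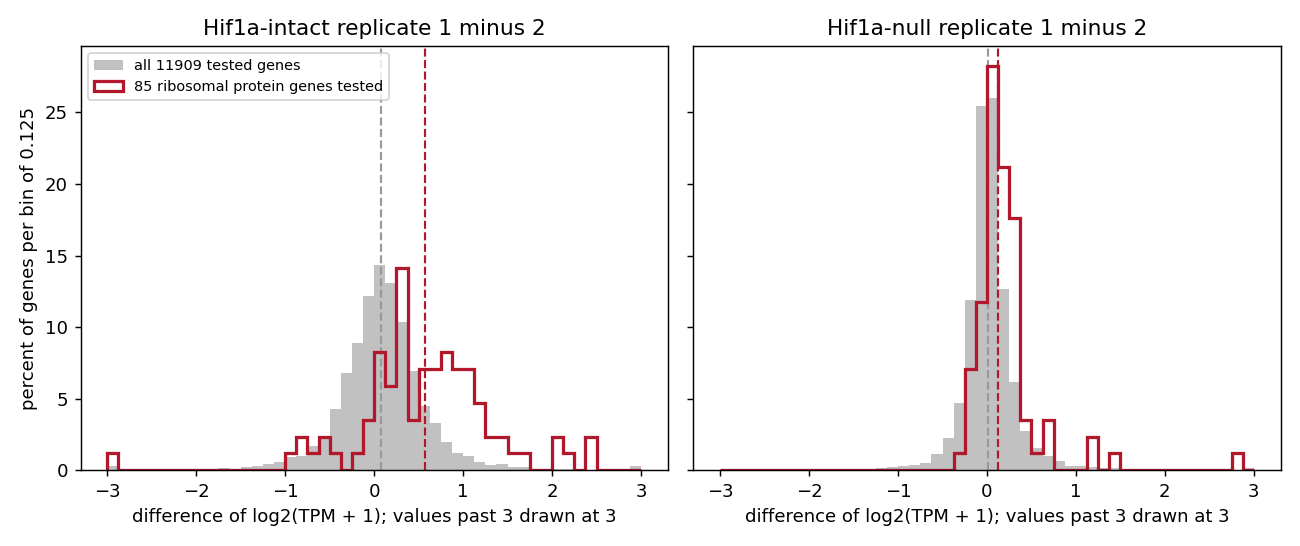
Share of genes by the difference of log2(TPM + 1) between replicates 1 and 2, for the Hif1a-intact pair (left) and the pair labelled Hif1a-null (right), in grey for all 11909 tested genes and in red for the 85 ribosomal protein genes. Dashed lines mark the medians, which for the red outline lie at 0.57 on the left and 0.13 on the right.

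The genes with the widest distance between the Hif1a-intact libraries were low or moderate in level. Rpl39, a very small protein of the large subunit, had 82.9, 14.9, 38.2 and 23.9 TPM. Rps28, a small subunit protein at the messenger RNA exit, had 93.2, 20.2, 55.5 and 41.95 TPM. Rps27a, which is made as a fusion with ubiquitin, had 201, 48.0, 121 and 105 TPM. In all 3, the libraries labelled Hif1a-null lay between the 2 Hif1a-intact values. Rpl10, which joins the large subunit late in its assembly, had 549, 176, 235 and 208 TPM, also with both Hif1a-null values between. Summed with copies, the distance between the Hif1a-intact libraries became 0.38 for Rpl39 and -0.24 for Rps27a, and stayed at 2.09 for Rps28. By contrast, 12 genes were higher in Hif1a-intact replicate 2, including Rpl13a, Rpl36a-ps1, Rps24, Rps6 (289, 526, 324 and 287 TPM), Rpl36a (1155, 1922, 1093 and 1166 TPM) and Rpl23. Rps6, the substrate of the S6 kinases, was thus high in that library alone, but with its copies it had 1896, 1795, 1531 and 1467 TPM, with Hif1a-intact replicate 1 highest.

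Several properties were set beside this distance between replicates, each as a description. Members with a median annotated transcript length of up to 500 bases had a median distance of 0.87 (n = 16), those of 500 to 750 bases 0.59 (n = 44) those of 750 to 1000 bases 0.35 (n = 22) and those above 1000 bases 0.62 (n = 3). Other protein-coding genes stayed between 0.07 and 0.09 in every length class, and other protein-coding genes of at least 50 TPM had a median of -0.03 (n = 2051). Mitochondrial ribosomal protein genes, which build a separate ribosome, had a median of 0.37 (n = 76), whereas 44 ribosome biogenesis factors had -0.01 and 38 translation factors of the cytosol had 0.15. The mast cell and basophil markers differed between the same 2 libraries, as given above. The part of length, of cell makeup or of RNA quality in the distance was not tested.

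The sign of the median difference between genotypes depended on which Hif1a-intact library was used. Without Hif1a-intact replicate 1, the median log2 fold change of the 85 genes was 0.14, 25 lay below 0 (51.3% of all tested genes did), and Rps12-ps3 and Rps27a were called higher in limma, where 8.77% of all genes were called (6.29% higher). Without Hif1a-intact replicate 2, the median was -0.46, 71 lay below 0 (60.1% of all tested genes did), Rpl10 was called lower and Rps12 higher, and 5.98% of all genes were called (1.49% lower and 4.49% higher). In these fits the lone library is assumed to vary like the other group. The Rps12 result rested on its value near 0 in Hif1a-intact replicate 1, and that of Rps12-ps3 on its low value in replicate 2, both given below. Against the 2 Hif1a-intact libraries in turn, 51 genes had opposite signs of the kind above replicate 2 and below replicate 1, and 5 had the reverse.

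Only the remaining genes kept their sign against each Hif1a-intact library. Below 0 against both were 20 genes, among them Rps14, Rps24, Rps19, Rps21, Rps29, Rpl13a, Rpl38, Rpl5, Rplp0 and Rps19bp1. Above 0 against both were 9 genes: Rpl14, Rpl15, Rpl22, Rpl27, Rpl27a, Rpl31, Rpl37a, Rplp1 and Rps13. Large and small subunit genes were found on both sides. Some genes on both sides were near 0 against Hif1a-intact replicate 2, such as Rpl5 (-0.055), Rplp0 (-0.023) and Rpl22 (0.003). Genes that kept or changed sign were not counted over all tested genes, so these counts have no background share beside them.

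**Figure D3:**
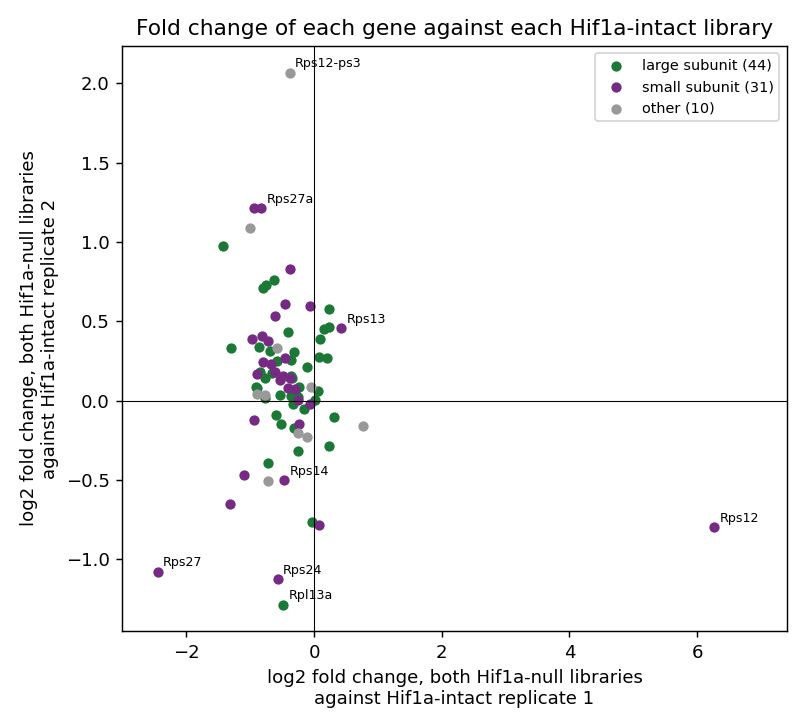
Log2 fold change of each of the 85 tested genes with the Hif1a-intact group reduced to replicate 1 (x axis) or to replicate 2 (y axis), coloured by subunit. The upper left field, below 0 against replicate 1 and above 0 against replicate 2, holds 51 genes, and Rps12 lies far to the right because its level in replicate 1 was listed near 0.

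The level assigned to a ribosomal protein gene was in many cases a small share of what its near-identical copies were given. With a copy defined as another gene matching in 95% or more of the aligned bases, over 50% or more of the shorter of both transcripts and no fewer than 100 bases, 78 of the 89 genes had a copy, in 426 pairs with a median of 4 copies and a maximum of 34 (Rpl21). The copies outside the set numbered 399, of which 386 are annotated as pseudogenes and 159 averaged at least 1 TPM. They summed to 113890, 86678, 80637 and 73000.0 TPM, far above the genes themselves. For 40 of the 89 genes, the copies held more TPM than the gene. Genes and copies together summed to 157039, 126162, 117068 and 107500.1 TPM, again with Hif1a-intact replicate 1 highest and a difference of -0.33 on the log2 scale (exact two-sided permutation test, p = 0.333). That difference was -0.17 without Hif1a-intact replicate 1 and -0.49 without replicate 2.

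**Figure D4:**
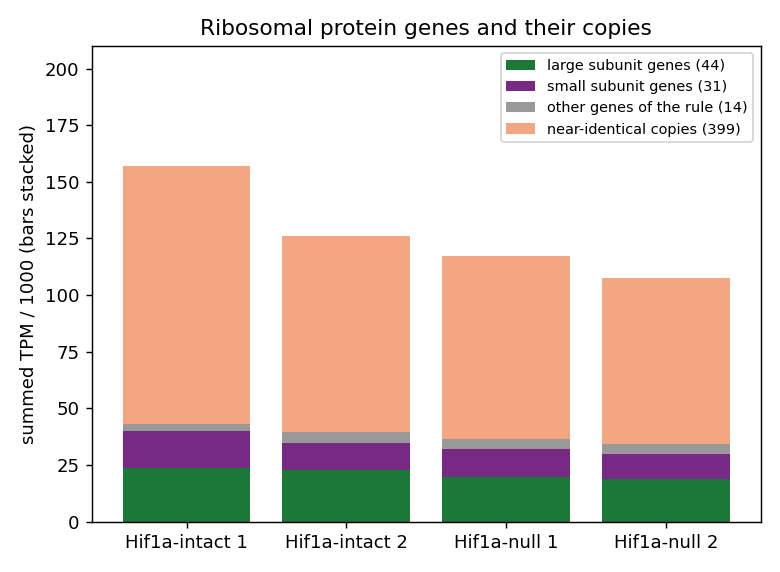
Summed TPM per library, divided by 1000, of the large subunit genes, the small subunit genes, the other 14 genes of the set and their 399 near-identical copies, stacked from 0. In each library the copies make up the largest segment, and the whole bar is highest in Hif1a-intact replicate 1.

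The strongest case was Rpl39, whose own level averaged 0.140% of the sum with its copies. Gm12013, a processed pseudogene of 155 bases on chromosome 11 (17095490 to 17095644, minus strand), was listed at 24456, 14898, 14837 and 11765 TPM. Gm15148 on chromosome X (151493114 to 151493269, minus strand) had 8252, 6643, 5215 and 4589 TPM, and Rpl39-ps on chromosome 15 (102635038 to 102635188, plus strand) had 6350.3, 8517, 4476 and 3590 TPM. The coding part of Rpl39 is shown above these copies because almost every base is shared. All sequences here are 5′ to 3′ from GENCODE M21 transcripts (GRCm38), and capitals mark bases that differ from the parent gene. Gm12013 has 1 mismatch and lacks 1 base, Gm15148 has 4 mismatches, and Rpl39-ps has 1 mismatch over its first 150 bases. TPM divides by transcript length, so a given number of reads weighs more in copies this short.
Rpl39: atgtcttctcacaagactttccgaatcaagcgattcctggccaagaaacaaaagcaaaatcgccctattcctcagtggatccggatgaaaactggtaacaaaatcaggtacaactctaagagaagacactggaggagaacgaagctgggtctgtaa
Gm12013: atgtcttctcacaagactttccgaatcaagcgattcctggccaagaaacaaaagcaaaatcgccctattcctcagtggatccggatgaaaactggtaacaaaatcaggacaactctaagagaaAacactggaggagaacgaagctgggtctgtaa
Gm15148: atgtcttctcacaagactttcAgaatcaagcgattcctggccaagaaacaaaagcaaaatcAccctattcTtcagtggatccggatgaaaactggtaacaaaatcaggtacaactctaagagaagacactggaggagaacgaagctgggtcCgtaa
Rpl39-ps: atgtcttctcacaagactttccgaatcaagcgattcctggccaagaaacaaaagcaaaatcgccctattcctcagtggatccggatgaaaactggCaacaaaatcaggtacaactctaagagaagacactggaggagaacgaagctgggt

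For Rpl12, the copy Gm20430 on chromosome 14 (57698013 to 57698219, plus strand) matches only the last 206 coding bases (293 to 498), with 1 mismatch. It was listed at 15570 (intact 1), 17157, 14529 and 14920 TPM, against 47.2, 37.7, 46.5 and 41.3 TPM for Rpl12. Unlike Gm12013, it was not higher in Hif1a-intact replicate 1. Both stretches are shown to place the mismatch.
Rpl12: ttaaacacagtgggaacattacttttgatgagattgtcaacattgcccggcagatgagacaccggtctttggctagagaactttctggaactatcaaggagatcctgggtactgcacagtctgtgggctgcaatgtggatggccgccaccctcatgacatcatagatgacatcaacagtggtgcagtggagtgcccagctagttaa
Gm20430: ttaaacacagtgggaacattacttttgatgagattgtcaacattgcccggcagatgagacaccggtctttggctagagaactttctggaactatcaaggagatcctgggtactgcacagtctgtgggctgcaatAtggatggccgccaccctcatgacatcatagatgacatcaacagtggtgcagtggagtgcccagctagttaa

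With each gene summed with its copies, 0 of the 85 genes were called, against 7.28% of all genes, and 7 had an unadjusted p under 0.05, against 23.2% of all tested genes. At 90% identity, which adds copies, Rps21 was called lower, where 2.04% of all genes were. With the 95% copies, the median log2 fold change was -0.17 and 71 lay below 0, against 57.6% of all tested genes. Copies that are themselves in the set were included. Pairs such as Rps12 and Rps12-ps3 (0.274 each) therefore carry the same sum, and both genes enter these counts. The median distance between the Hif1a-intact libraries was then 0.59, close to the 0.57 of the genes alone. Of the tested genes, 8 had no copy found at 95% identity, among them Rpl4, Rpl8, Rps9, Rps20 and Rps21. Their median distance between the Hif1a-intact libraries was 0.49, replicate 1 was higher in all 8, and all 8 lay below 0 between genotypes. Rps20, for example, had 442, 214, 259 and 248 TPM, and Rpl8 had 699.9, 559.6, 598 and 591 TPM. Hif1a-intact replicate 1 was the highest library for both.

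Within the set itself, the retrocopies and their parents shared their level unevenly between libraries. Rps12, a small subunit gene on chromosome 10 (23785183 to 23787275, minus strand), was listed at 6.3e-07 TPM in Hif1a-intact replicate 1 and at 132, 77.0 and 74.6 TPM in the others. Rps12-ps3 on chromosome 19 (59322290 to 59322783, plus strand) had 195, 34.9, 155 and 145 TPM. Their sums, 195, 167, 232 and 219 TPM, differed by a factor of 1.39 from lowest to highest. The library with Rps12 near 0 was the library with the most Rps12-ps3. No fold change is given for Rps12, since it would rest on the value near 0. The log2 fold change of Rps12-ps3 was 0.84, and it was 2.07 without Hif1a-intact replicate 1 and -0.38 without replicate 2. Their 399 coding bases are identical, and the first 240 are printed once for both, since no base distinguishes them.
Rps12 and Rps12-ps3: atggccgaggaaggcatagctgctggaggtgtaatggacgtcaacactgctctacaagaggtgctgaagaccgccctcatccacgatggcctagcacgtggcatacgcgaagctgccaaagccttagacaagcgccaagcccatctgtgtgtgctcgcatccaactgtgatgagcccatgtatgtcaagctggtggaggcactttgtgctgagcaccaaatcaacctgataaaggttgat

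Rps27 and Rps27rt, an intronless copy, are identical over all 255 coding bases. Rps27rt had 285, 150.1, 169 and 212 TPM, and the share of the pair given to Rps27 was 47.9%, 40.1%, 42.6% and 7.57%. The sums were 546, 251, 295 and 229 TPM. In Hif1a-null replicate 2, Rps27 was low, the sum was the lowest, and Rps27rt was below its level in Hif1a-intact replicate 1 only. Whether level moved between the genes was not tested. Rpl10 and Rpl10-ps3 are identical over 645 coding bases, and the share given to Rpl10 was 79.1%, 57.0%, 62.8% and 59.4%. Rpl10-ps3 stayed level at 145, 133, 139 and 142 TPM.

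Rpl36a and Rpl36a-ps1 differ at 7 of 321 coding bases. All 7 lie in the first 180, shown with capitals in the copy. Rpl36a received 33.5%, 30.7%, 22.7% and 22.3% of the pair, which summed to 3445, 6253, 4808 and 5230 TPM. Both genes were highest in Hif1a-intact replicate 2, and in this pair the copy held most of the level in every library.
Rpl36a: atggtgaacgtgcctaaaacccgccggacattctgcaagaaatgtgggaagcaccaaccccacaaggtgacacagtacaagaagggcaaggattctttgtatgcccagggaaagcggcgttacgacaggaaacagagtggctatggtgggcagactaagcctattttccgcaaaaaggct
Rpl36a-ps1: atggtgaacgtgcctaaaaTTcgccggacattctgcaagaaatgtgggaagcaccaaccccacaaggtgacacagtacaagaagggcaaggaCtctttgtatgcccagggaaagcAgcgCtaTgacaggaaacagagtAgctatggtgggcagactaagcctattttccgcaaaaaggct

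**Figure D5:**
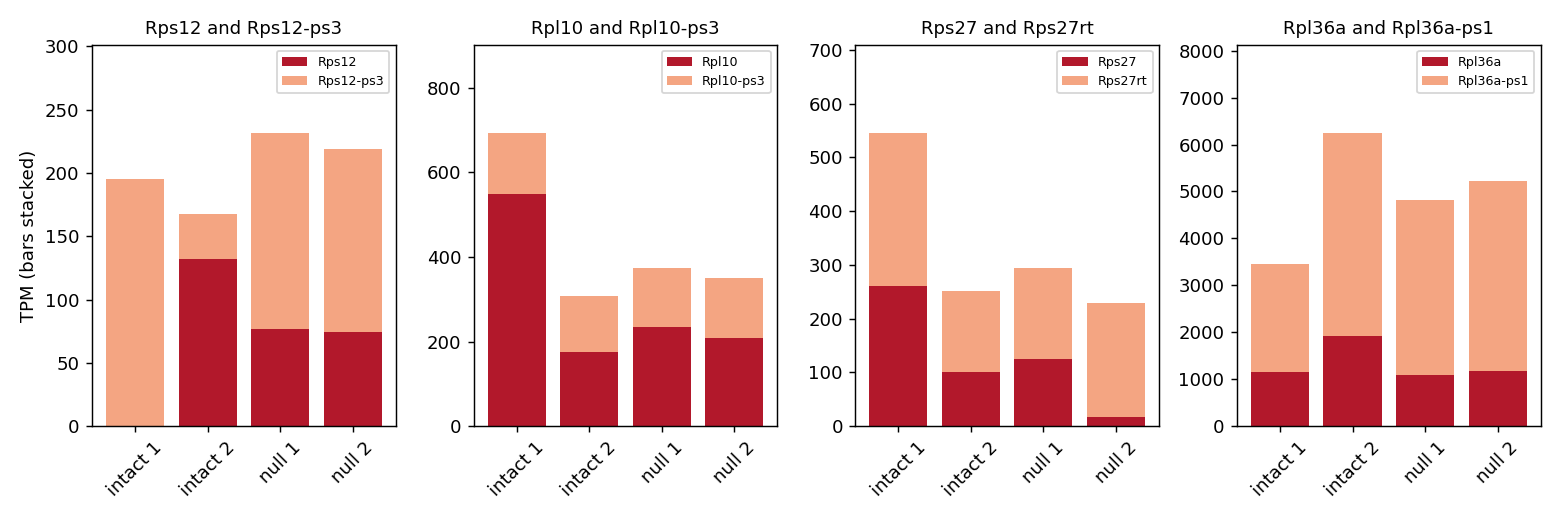
TPM of 4 ribosomal protein genes (dark) and their retrocopies (light), stacked from 0 in each library. The Rps12 segment is missing in Hif1a-intact replicate 1 and the Rps27 segment shrinks in Hif1a-null replicate 2, while each whole bar stays within 2.4-fold of the lowest.

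Values near 0 in a single library were few in the set, too few for a comparison of shares. A value was counted as near 0 where it was under 1/10 of the median of the other 3 libraries and that median was at least 5 TPM. Of the 85 genes that could meet this, 1 did in a single library (Rps12, 1.18%), against 57 of 8499 protein-coding genes (0.671%). A limit of 1/4 added Rps12-ps3 in Hif1a-intact replicate 2 and Rps27 in Hif1a-null replicate 2, making 3 genes (3.53%), against 99 of the 8499 (1.16%). When genes were summed with their copies, 0 of the 85 met the limit of 1/10.

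Other genes of the pathway were counted in the same limma fit, in which 7.27% of all tested genes were called and 23.2% had an unadjusted p under 0.05. Of 44 ribosome biogenesis factors, which make ribosomal RNA and assemble the subunits, 0 were called, 1 had an unadjusted p under 0.05 and the median log2 fold change was -0.08. Efl1, a GTPase that releases Eif6 from the large subunit with Sbds, had the smallest p among them, with 10.6, 12.6, 6.995 and 7.34 TPM (adjusted p = 0.0982 in limma). Of 38 translation factors, 0 were called and 0 had an unadjusted p under 0.05, with a median of -0.04. The elongation factor Eef1a1 alone had 22460 (intact 1), 19516, 17295 and 17395 TPM, with a limma adjusted p of 0.347. Fau, which encodes a ribosomal protein fused to a ubiquitin-like protein, lies outside the naming rule and was listed at 7.89, 0, 3.44 and 3.02 TPM. It was not called, and its lowest value was in Hif1a-intact replicate 2.

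Of 17 genes of mTOR and Myc control, 1 rose and 0 fell, which is near the background of 5.25% of all tested genes called higher. That gene was Mxd1, which encodes a Max partner that opposes Myc, with 19.0, 20.1, 35.7 and 34.9 TPM, a log2 fold change of 0.82 (limma adjusted p = 0.0391). Of 76 mitochondrial ribosomal protein genes tested, 0 rose and 1 fell, with a median of -0.10, and 2.02% of all tested genes were called lower. Mrps21 had 25.8, 24.6, 13.6 and 14.2 TPM, a log2 fold change of -0.81 (limma adjusted p = 0.0403). Its replicates were close in both groups, but it was named for the smallest p of its list, a choice that favours close replicates.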

How the data were processed

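RNA of cells selected with CD117 microbeads was extracted on RNeasy columns and sequenced from standard Illumina libraries, per the labels' protocols. The deposited values are per Ensembl gene and were made with kallisto on mm10, per the submitters' processing notes. No source here names the unit, and the deposited values were taken as TPM because they are not whole numbers and their sum is nearly the same in each library (955562 to 963135). The version, transcript set and strandedness were not given in the sources used here. Where transcripts resemble each other kallisto assigns reads by estimation, so a gene and its copies can exchange level. TPM keeps no depth, and tests for read counts were not run.

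Symbols and coordinates came from GENCODE M21 (GRCm38) and matched 27458 of 28987 genes. All genes reaching 1 TPM in 2 or more libraries entered a single fit with limma 3.58.1 (R 4.3.3; lmFit, then eBayes with neither trend nor robust estimation) on log2(TPM + 1). Its two-sided p-values were adjusted by Benjamini-Hochberg over 11909 genes, with a threshold of 0.05. A positive fold change means a higher level in the libraries labelled Hif1a-null, and the pseudocount makes changes of low genes look smaller. The fit was tested on simulated data. Copies were found with blastn 2.17.0 on either strand. Coding parts were aligned with Biopython 1.88 in Python 3.11.15, and plots were made with matplotlib 3.10.9.

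Members and gene lists were chosen with earlier results of these data known. Named were genes with a value near 0 or listed at 0, the 5 highest and 5 lowest, the 6 largest differences each way, paralogs with their parents, the anaemia genes, and up to 4 genes of smallest p per other list. Genes named for the distance between replicates, their copies, their subunit role or an unadjusted p under 0.05 were chosen after their values were seen. Alternatives were other filters, pseudocounts, variance models and scalings, sums with copies, and each library left out. A few members and list genes are not reported here by name, and their values stay in the counts and sums.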

Additional observations from a re-analysis of the deposited data

How the results depend on the processing

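The count of 0 genes called in each direction held under other filters, a pseudocount of 0.1, both other variance models and all 3 other scalings. A pseudocount of 10 called 1 gene lower (Rps14), and sums with copies at 90% identity called 1 lower (Rps21). Leaving out each library in turn gave between 0 and 2 genes called higher and between 0 and 1 called lower. Without either library labelled Hif1a-null, few of all genes were called (19 of 11262 without replicate 1 and 0 of 11272 without replicate 2), so these fits say little. The median log2 fold change ranged from -0.46 to 0.14 over these 4 fits, with 0.14 without Hif1a-intact replicate 1 the only value above 0. Under the other settings it lay between -0.18 and -0.10. Genes near 0 numbered 3 at a limit of 1/4 and 0 after summing with copies. Pairs of genes and copies numbered 719 at 90% identity. Of 210 values of 14 named genes, 7 changed sign. These 14 genes were chosen from these data for large differences or an unadjusted p under 0.05, which favours a kept sign. Their count therefore does not describe the other tested genes of the set. Across all tested genes of the set, 51 lay above 0 against Hif1a-intact replicate 2 and below 0 against replicate 1. The reverse held for 5. Rpl14 was at -0.27 and Rpl31 at -0.23 summed with copies, and at -0.27 and -0.22 with copies at 90% identity. With libraries left out, Rpl36a-ps1 ranged from -0.16 to 0.76, Rps12-ps3 from -0.38 to 2.07 and Rps13 from -0.13 to 1.0. The cause of these changes was not tested. No paired analysis was possible because the labels give the libraries no shared replicate numbers. Depth is unknown, so no counting error could be given.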
